A study of Mus musculus with 11 samples.

Results

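Unc13a, Unc13b, Unc13c, Cadps, Cadps2, Rims1, Rims2 and Stxbp5 encode proteins that ready secretory vesicles for release. They were followed across stable NSC34 lines that carried a Tardbp hairpin or a control hairpin. Tardbp encodes TDP-43, an RNA-binding protein that regulates splicing. Members were probe sets annotated with exactly 1 of these 8 symbols. Of the 8 genes, 7 were measured, through 186 of 194293 probe sets and among 15803 named genes in all; Stxbp5 had no such probe set and was not analysed here. The choice drew on the differences between shTardbp and control arrays, above all on the opposite differences of Unc13a and Unc13b. Those differences are therefore described with their standard errors (SE) and without tests, and tests are given only for the comparison between the control groups and for genes outside the member list.

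NSC34 cells are a mouse line made by fusing neuroblastoma cells with motor-neuron-rich spinal cord cells. All cells carried a pSUPERIOR hairpin vector and were taken as stable clones under puromycin; the groups were 4 arrays with a Tardbp hairpin (shTardbp 1 to 4), 4 with a GFP hairpin (shGFP 1, 2, 3 and 5) and 3 with a Renilla luciferase hairpin (shLuciferase 1, 2 and 4). The labels do not say how many clones or cultures stand behind a group, so the spread between arrays may be technical. The one designed sequence that set the shTardbp lines apart, the hairpin's target in Tardbp as the labels give it, was as follows, with no capitals because no base is singled out.
Tardbp hairpin target: tctaagcaaagccccagacgagcct

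Release of a synaptic or dense core vesicle requires docking at the membrane and a priming step that brings the SNARE proteins of vesicle and membrane into a partly assembled, fusion-ready state. Munc13 proteins (genes Unc13a, Unc13b and Unc13c) open syntaxin for this assembly, CAPS proteins (Cadps and Cadps2) act in priming of dense core vesicles, and RIM proteins (Rims1 and Rims2) hold Munc13, Rab3 and calcium channels together at the active zone. Tomosyn (Stxbp5) opposes the step by occupying syntaxin and SNAP-25. Unc13b is known to give a brain-specific and a ubiquitous protein from different start sites. In human neurons, UNC13A is known as a transcript that TDP-43 protects from inclusion of a cryptic exon.

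Because Unc13a and Unc13b differed in opposite directions, the 250 bases upstream of 1 annotated start of each are shown (RefSeq, GRCm38.p6). Capitals mark GC boxes, GGGCGG or its reverse complement CCGCCC, on either strand. The Unc13a stretch is chr8:71671758-71672007, minus strand, and the Unc13b stretch is chr4:43058703-43058952, plus strand, both printed in the direction of the gene.
Unc13a promoter: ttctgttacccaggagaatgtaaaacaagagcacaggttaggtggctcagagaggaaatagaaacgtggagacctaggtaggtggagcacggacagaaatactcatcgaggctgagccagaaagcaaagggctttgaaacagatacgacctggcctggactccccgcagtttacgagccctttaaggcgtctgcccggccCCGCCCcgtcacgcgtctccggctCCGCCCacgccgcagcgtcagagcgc
Unc13b promoter: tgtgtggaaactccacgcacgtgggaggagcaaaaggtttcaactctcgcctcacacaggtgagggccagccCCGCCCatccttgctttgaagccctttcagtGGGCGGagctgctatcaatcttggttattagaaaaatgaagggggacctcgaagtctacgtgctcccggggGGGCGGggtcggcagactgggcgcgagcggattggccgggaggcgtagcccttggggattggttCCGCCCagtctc

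The Unc13a stretch held 2 GC boxes and 18 CpG dinucleotides, with 58.0% G and C. The Unc13b stretch held 4 GC boxes and 16 CpG dinucleotides, with 60.8% G and C. Of 32851 upstream stretches of the same length, 32.7% held at least 1 GC box, and the median stretch had 6 CpG dinucleotides and 52.4% G and C. Both paralogs thus start near sequence richer in CpG than the median stretch, and GC boxes are a description of letters here, not of bound factors. The CpG count is not particular to these paralogs. The stretches of Cadps2, Stxbp5, Rims1 and Cadps held 44, 40, 19 and 14 CpG dinucleotides, and that of Unc13c held 6.

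Gene values are averages of log2 values over the probe sets of a gene. Array medians ran from 6.82 to 6.92. The 25th percentile of all probe sets on an array, 4.46 to 4.57, served as the level under which a value is not shown to be above background. The third principal component of the gene values (9.18% of their variance) put shLuciferase 4 at 17.0 and the other 10 arrays between -11.3 and 8.87, so the differences are also given without it. Tardbp itself was lower on all 4 shTardbp arrays (at most 8.997) than on all 7 controls (at least 9.083), by -0.40 (SE 0.0722; exact two-sided permutation p = 0.00303, the smallest that 330 splits allow; limma adjusted p = 0.000713, n = 4 against 7). With the code letter of the arrays, P on the shTardbp arrays and shLuciferase 4 and C on the others, as a block, that call was lost (-0.29, limma adjusted p = 0.173). Under that block shLuciferase 4 is the only control that shares a letter with shTardbp. Every shTardbp difference with the letter as a block therefore rests on that array. Among markers fixed for the line, the 5 neuronal ones measured (Tubb3, Stmn2, Nefl, Nefm and Snap25) lay above background on every array. Of 5 motor neuron markers, Slc18a3, Isl1 and Lhx3 did, while Chat and Mnx1 did so on no array. So did 3 of 5 glial and 4 of 5 fibroblast markers, so this level does not tell the cell types apart. The mean of the motor neuron markers was 6.23 to 6.43 in shTardbp and 6.02 to 6.22 in controls, with 1 of 5 higher by limma. That gene, Slc18a3, rests on 1 probe set, and its shGFP minus shLuciferase difference was -0.46 (limma adjusted p = 0.016). Isl1 differed by -0.51 from shGFP and by 0.60 from shLuciferase, with controls that differed by 1.11 (limma adjusted p = 6.7e-05). The mean of 5 glial markers was 4.66 to 4.86 against 4.63 to 4.84, with 1 of 5 higher. That of 5 fibroblast markers was 5.02 to 5.17 against 5.15 to 5.56, with 1 of 5 higher and 1 lower. The higher one, Pdgfrb, differed by 0.04 from shGFP and by 0.79 from shLuciferase. The lower one, Dcn, lay below all controls, which themselves differed by 1.14 (limma adjusted p = 1.4e-05). Of all genes, 13.5% were higher and 17.0% lower by limma. The part of the marker genes in the results on priming genes was not tested. In bulk RNA of this kind, fewer cells with a transcript and less transcript per cell cannot be told apart.

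Unc13a, the main Munc13 of excitatory synapses and of the neuromuscular junction, stood highest in the shTardbp lines. Its values were 9.49, 9.64, 9.34 and 9.40 on shTardbp 1 to 4. They were 9.13, 8.68, 8.84 and 8.72 on shGFP 1, 2, 3 and 5, and 8.60, 8.50 and 8.74 on shLuciferase 1, 2 and 4. All 4 shTardbp arrays lay above all 7 controls, and the nearest control was shGFP 1, while the shGFP and shLuciferase arrays overlapped. The group means were 9.47 ± 0.131 (SD, n = 4), 8.84 ± 0.204 (n = 4) and 8.61 ± 0.124 (n = 3). The log2 difference from the mean of both control means was 0.74 (SE 0.0909), or 1.67-fold, with 0.63 (SE 0.102) against shGFP and 0.86 (SE 0.110) against shLuciferase. This value rests on 1 probe set. RefSeq also lists Unc13a as an older name of Unc13b, and the annotation gives this probe set neither an accession nor a position, so its gene is known only by that symbol. Of all probe sets, 5.34% had all shTardbp values above all controls, as this one did.

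Unc13b, the second neuronal Munc13, was low in the shTardbp lines. The shTardbp arrays read 4.18, 4.20, 4.33 and 4.26. The shGFP arrays read 4.96, 4.94, 5.01 and 4.99, and the shLuciferase arrays 4.89, 4.97 and 5.05. The shTardbp values formed a cluster below all controls, and the 2 control groups lay on top of each other. Means were 4.24 ± 0.0652 (SD, n = 4), 4.98 ± 0.0328 (n = 4) and 4.97 ± 0.0793 (n = 3). The log2 difference was -0.73 (SE 0.0551), with -0.73 against shGFP and -0.73 against shLuciferase. The gene value was above the 25th percentile on the 7 control arrays and on none of the 4 shTardbp arrays, so the size of the difference has no firm lower end.

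The gap between the Unc13a and Unc13b values of an array removes any shift common to the array. It had to part the groups, since shTardbp lay above all controls for Unc13a and below them for Unc13b, and is given only as a description. It was 5.01 to 5.44 in shTardbp, 3.73 to 4.17 in shGFP and 3.53 to 3.70 in shLuciferase. On average it was wider in shTardbp by 1.36 than in shGFP and by 1.58 than in shLuciferase. The gap compares different probes, so only its change between arrays has meaning, not its size.

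Unc13c, the Munc13 known from cerebellar granule cells, was not shown to be expressed. Its values were 3.49 to 3.77 in shTardbp, 3.57 to 3.69 in shGFP and 3.50 to 3.71 in shLuciferase, below the 25th percentile on every array. The groups overlapped, with a log2 difference of 0.03 (SE 0.0669). At that level a change in the transcript could not have been read from these arrays.

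**Figure D1:**
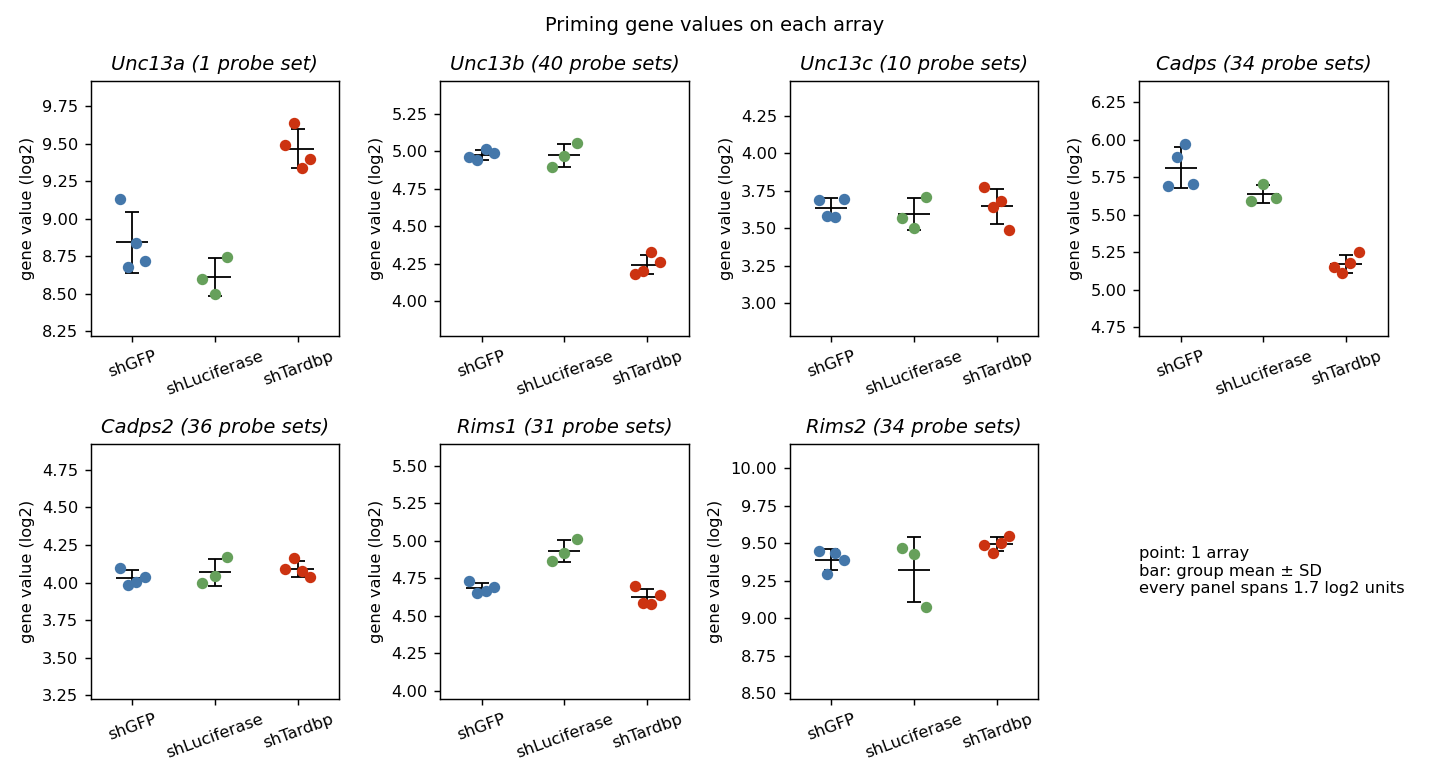
Gene values (log2, vertical axis) of the 7 measured priming genes on each array (points), with group means and SD (bars), for shGFP (n = 4), shLuciferase (n = 3) and shTardbp (n = 4). Unc13a lies higher and Unc13b and Cadps lie lower on all 4 shTardbp arrays than on all 7 controls, and the other 4 genes overlap.

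Cadps, the CAPS protein of neurons and endocrine cells that primes dense core vesicles, was also lower in shTardbp. Its shTardbp values were 5.15, 5.11, 5.18 and 5.25. The shGFP values were 5.69, 5.89, 5.97 and 5.70, and the shLuciferase values 5.59, 5.70 and 5.61. Every shTardbp array lay below every control, all of them above the 25th percentile, and shGFP reached higher than shLuciferase with an overlap at 5.70. The difference was -0.55 (SE 0.0661) or 1.47-fold, from -0.64 (SE 0.0743) against shGFP to -0.46 (SE 0.0802) against shLuciferase. Its paralog Cadps2 was at 4.03 to 4.17 in shTardbp, 3.98 to 4.10 in shGFP and 3.99 to 4.17 in shLuciferase. The Cadps2 average was not above the 25th percentile on any array, its groups overlapped, and its difference was 0.04 (SE 0.0561). Of its 36 probe sets, 8 were above that level on all 11 arrays, with differences of -0.14 to 0.29.

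Of the RIM genes, neither separated shTardbp from all controls. Rims1 read 4.70, 4.58, 4.58 and 4.64 in shTardbp, 4.73, 4.65, 4.66 and 4.69 in shGFP, and 4.86, 4.92 and 5.01 in shLuciferase. The shTardbp arrays overlapped shGFP and lay below shLuciferase, so the difference was -0.06 (SE 0.0608) against the former and -0.31 (SE 0.0657) against the latter. Rims2 was read by 34 probe sets, each above the 25th percentile on all 11 arrays. Rims2 read 9.49, 9.44, 9.51 and 9.55 in shTardbp, 9.45, 9.29, 9.44 and 9.39 in shGFP, and 9.47, 9.43 and 9.08 in shLuciferase. The groups overlapped, shLuciferase 4 stood below all other arrays, and the difference was 0.14 (SE 0.0745). It was 0.07 without shLuciferase 4. With the code letter of the arrays as a block, which rests on the low shLuciferase 4 array, it was 0.45.

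Of the 7 genes, 1 had all shTardbp values above all 7 controls (as had 8.45% of all genes) and 2 had them below (9.82%). Nothing is read from these counts, because the members were chosen on this comparison. The differences against shGFP and against shLuciferase share the shTardbp arrays and are not independent of each other.

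**Figure D2:**
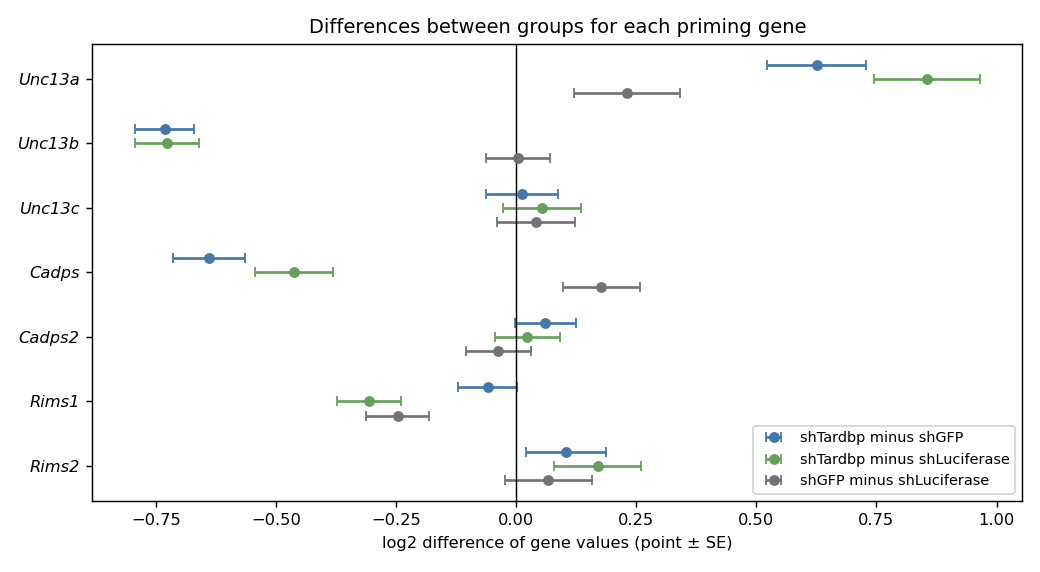
Log2 differences of gene values (horizontal axis, points ± SE) for shTardbp minus shGFP, shTardbp minus shLuciferase and shGFP minus shLuciferase. Unc13b differs from both controls by -0.73 with controls that differ by 0.00, whereas the Rims1 difference is -0.06 against shGFP and -0.31 against shLuciferase.

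The controls offered a comparison on which the genes were not chosen, shGFP minus shLuciferase, tested by limma with adjustment over all genes (n = 4 against 3). Of the 7 genes 1 passed, where 11.1% of all genes did. Rims1 was lower in shGFP by -0.25 (SE 0.0657, adjusted p = 0.0269), with the 4 shGFP values below the 3 shLuciferase values. That call was lost when shGFP 2, 3 or 5, or shLuciferase 2 or 4, was left out (limma adjusted p = 0.0559 to 0.0806), and when probe sets were combined by their median (0.103). It was also lost with probe sets above the 25th percentile only (0.0889) and with centred arrays (0.0615). With the code letter or the replicate number as a block it was lost too (limma adjusted p = 0.0806 and 0.194). Unc13b had a difference of 0.00 (95% interval -0.14 to 0.15, adjusted p = 0.988), the smallest of the 7 genes. Unc13a had 0.23 (interval -0.01 to 0.47, adjusted p = 0.238) and Cadps 0.18 (0.00 to 0.35, adjusted p = 0.208), both higher in shGFP without passing. For Unc13c, Cadps2 and Rims2 the differences were 0.04, -0.04 and 0.07, with adjusted p-values of 0.870, 0.860 and 0.786.

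Single probe sets showed that the Unc13b value averages unlike parts. Of its 40 probe sets, 36 were lower in shTardbp, 19 had all 4 shTardbp values below all 7 controls, and 10 were lower by at least 1 log2 unit. Of all 194293 probe sets, 48.7% were lower, 5.57% lay below in this way and 1.22% were lower by that much. Probe sets of a gene share its transcripts and are not replicates. Their differences ran from -3.84 to 0.13 with a median of -0.54. The 20 probe sets whose mean level lay above the 25th percentile of all probe set means had a median of -0.72, the other 20 one of -0.40. That level includes the control arrays, and some probe sets passed only through them, so the split itself favours larger falls. The 10 probe sets above the percentile on all 11 arrays had a median of -0.54, the same as all 40. That choice leaves out probe sets that fell below the percentile in shTardbp, so it favours smaller falls.

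Probe set 4521655 had the widest difference of Unc13b. It read 7.42, 6.98, 7.65 and 6.67 on the shGFP arrays, 7.65, 7.50 and 7.31 on the shLuciferase arrays, and 3.14, 3.46, 3.53 and 3.86 on the shTardbp arrays. The control arrays stood well above the 25th percentile and all shTardbp arrays below it, a difference of -3.84 (SE 0.187) whose true size is unknown because one side is not above background. In all, 5 Unc13b probe sets were above the percentile on the 7 controls and on no shTardbp array. Others stayed readable in shTardbp. Probe set 5367962 was at 7.69 to 8.32 in controls and at 7.21 to 7.63 in shTardbp, lower but above background on every array. Probe set 4880529 was at 7.21 to 7.90 in controls and 6.22 to 6.68 in shTardbp (-1.15, SE 0.142), and 4764029 at 6.53 to 7.04 and 4.63 to 5.24 (-1.76, SE 0.119). Probe set 4718794 was at 4.58 to 5.31 and 4.88 to 5.39, with overlapping groups (0.13, SE 0.165). It lay near background, with 4.58 on shGFP 1 against that array's 25th percentile of 4.55. Probe set 5438463, further above background, was at 6.12 to 6.81 and 5.14 to 6.33, also with overlapping groups (-0.31, SE 0.224). Probe sets of Unc13b with readable signal thus differed unequally between the lines, from no separation to loss below background. Positions of the probe sets were not used, and none is assigned to an exon or to one of the known start sites here.

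**Figure D3:**
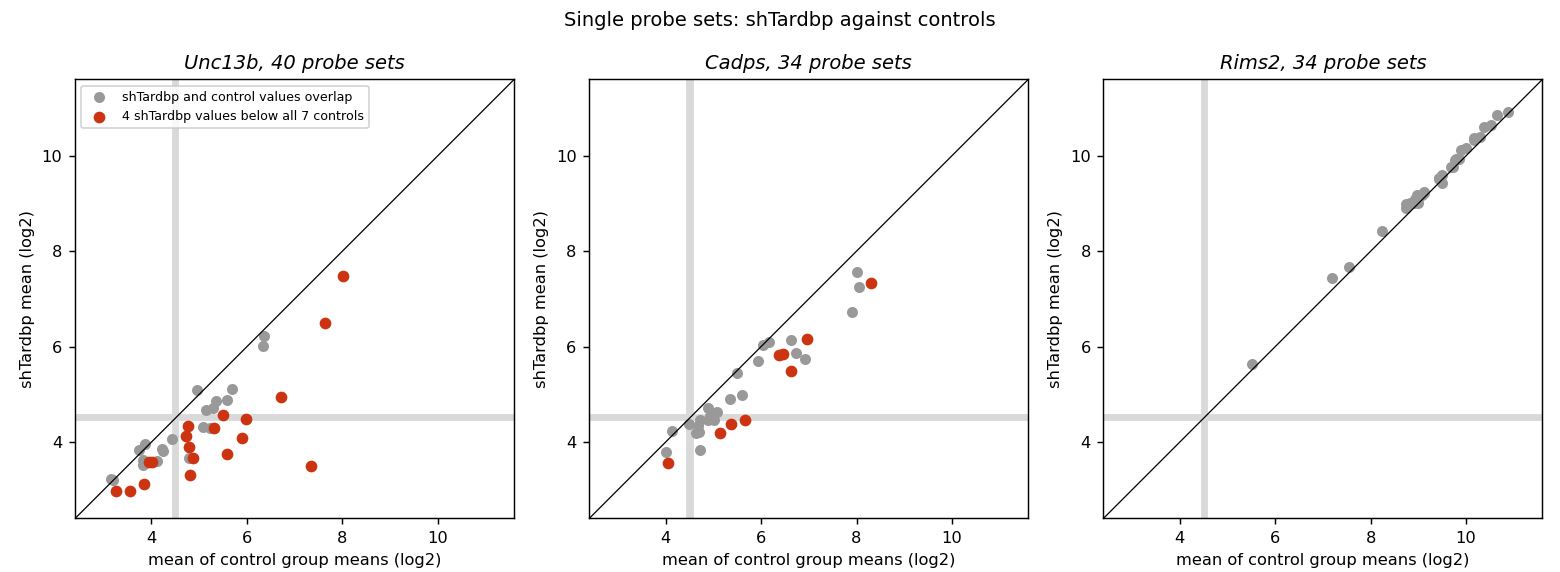
Each point is 1 probe set of Unc13b (40), Cadps (34) or Rims2 (34), with the mean of the control group means on the horizontal axis and the shTardbp mean on the vertical axis (both log2); the line marks equality and the grey bands the 25th percentiles of the arrays, 4.46 to 4.57. The lone Unc13b point far from the line is probe set 4521655, and the Rims2 points follow the line.

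Cadps differed more evenly than Unc13b. Of its 34 probe sets, 33 were lower in shTardbp, with a median of -0.49 and a range of -1.20 to 0.10; 9 had all shTardbp values below all controls and 4 were lower by at least 1 log2 unit. Probe set 4451060 read 4.88 to 5.79 in shTardbp and 6.26 to 7.38 in controls, above background on every array (-1.16, SE 0.216). Rims2 was the most even gene, with 33 of 34 probe sets higher by 0.25 at most and 1 lower by 0.06. No Rims2 probe set separated shTardbp from the controls. Of 31 Rims1 probe sets 22 were lower, with a median of -0.16, and 1 lay below all controls. In Cadps2, 10 of 36 probe sets had a mean level above the 25th percentile of probe set means, and in Unc13c 0 of 10 had; no probe set of either gene separated the groups.

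Between the controls, 2 of the 186 probe sets passed limma's adjusted p over all probe sets, where 2.62% of all did. Probe set 5231667 of Cadps was at 8.59 to 8.97 in shGFP and 7.62 to 8.17 in shLuciferase, higher in shGFP by 0.87 (SE 0.157, adjusted p = 0.0133), and at 7.07 to 7.53 in shTardbp. Probe set 5508491 of Rims1 was at 5.97 to 6.42 in shGFP and 6.67 to 6.86 in shLuciferase, lower in shGFP by -0.64 (SE 0.141, adjusted p = 0.0359), and at 6.07 to 6.44 in shTardbp. With 1 array left out the number that passed ran from 0 (without shLuciferase 1) to 2, and was 1 without shGFP 1, 2 or 5 or shLuciferase 2 or 4. For these probe sets the choice of control decided how far shTardbp stood from it.

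**Figure D4:**
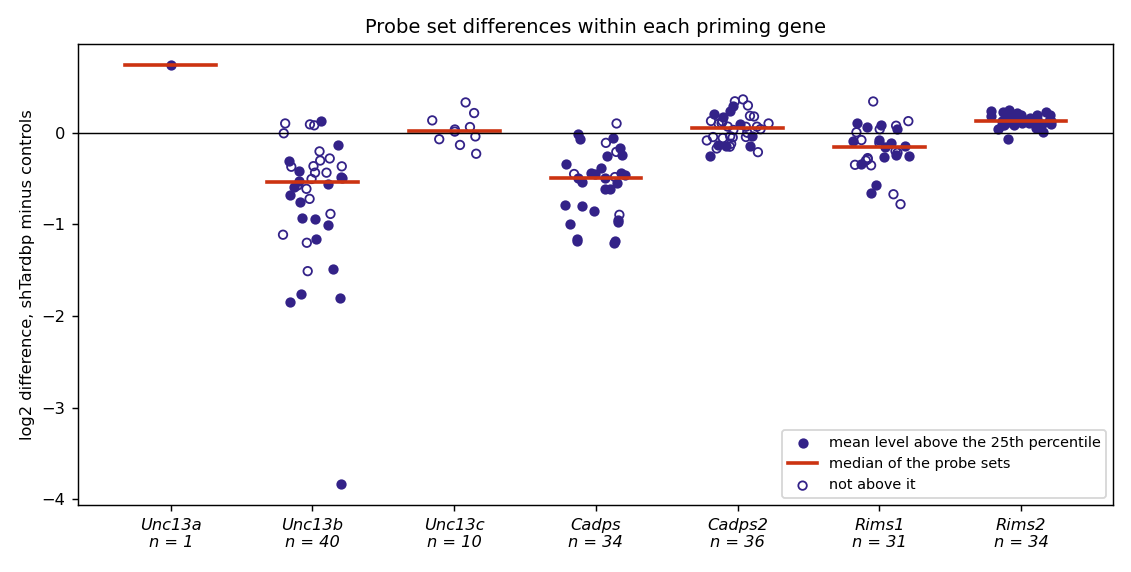
Log2 differences of single probe sets, shTardbp minus the average of both control means (vertical axis), for each priming gene; filled points have a mean level above the 25th percentile of all probe set means, open points do not, and red lines are medians. The Unc13b points spread from 0.13 down to -3.84, the Cadps points from 0.10 to -1.20, and the Rims2 points stay within -0.06 to 0.25.

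Values that moved with these differences were checked for each gene. The labels do not explain the code letters P and C. Against shLuciferase 4, the only control among the P arrays and the array that stood apart on the third component, shTardbp differed by 0.72 for Unc13a, -0.81 for Unc13b, -0.44 for Cadps, -0.39 for Rims1 and 0.42 for Rims2. With the letter as a block the differences were 0.58 for Unc13a, -0.83 for Unc13b, -0.52 for Cadps and -0.285 for Rims1. They rest on the same control array and are not a second check. Without shLuciferase 4 the differences were 0.77 for Unc13a, -0.71 for Unc13b, -0.56 for Cadps, -0.16 for Rims1, 0.06 for Unc13c and 0.07 for Cadps2. Genes that neighbour Unc13b on chromosome 4 were also low in shTardbp against the control average, though the controls differed there by as much. Of the 50 nearest measured genes, 21 passed as lower and 1 as higher, where 17.0% and 13.5% of all genes did, with a median of -0.10. After subtracting that median, Unc13b was at -0.63. The 50 neighbours of Rims1 had a median of -0.17, with 23 lower and 1 higher, which left Rims1 at -0.01. Around Unc13a the median was -0.01 over 50 genes (9 lower, 7 higher) and around Cadps -0.04 over 38 (9 lower, 2 higher), leaving 0.75 and -0.51. For shGFP minus shLuciferase the neighbour medians were -0.10 around Unc13b, 0.08 around Rims1, -0.03 around Unc13a and -0.03 around Cadps.

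The genes whose values ran most like Unc13a over the 11 arrays were Caskin1 (Pearson r = 0.993), Ltk (0.986) and Hsd3b7 (0.972). Those most like Unc13b were Cenpn (0.995), Sgol2 (0.994) and Epha7 (0.991). The points are arrays in 3 groups, so these correlations mostly restate that a gene separates shTardbp from the controls, and they are given as a description. Caskin1, an adaptor that binds the synaptic scaffold kinase CASK, was at 8.63 to 8.83 in shTardbp and 8.09 to 8.49 in controls. Cenpn, a kinetochore protein gene, was at 10.98 to 11.12 and 11.80 to 11.95. Like the Unc13b gene value, that of Epha7 ended below the 25th percentile in shTardbp (3.87 to 4.07, against 7.35 to 8.07 in controls). The Unc13b gene value was far lower in controls, at 4.89 to 5.05. Of its 40 probe sets, 10 stayed above the percentile on all 11 arrays.

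Other genes of the release machinery were taken from a list of 49 drawn up by role, of which 42 were measured. The list was drawn up with earlier results of these data known, which limits what its adjusted p-values and counts can show. Against the average of both control means, 10 were higher in shTardbp, 5 lower and 27 did not pass by limma's adjusted p; of all genes, 13.5% were higher and 17.0% lower. Such a call does not require a difference from each control. Of the 42 genes, 7 had all shTardbp values above all 7 controls and 2 had them below, where 8.45% and 9.82% of all genes did. The list's median difference was 0.06 and that of all genes 0.01. Between the controls 5 of the 42 were higher and 2 lower in shGFP, where 6.26% and 4.82% of all genes were.

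Among SNARE genes and the factors that recycle SNARE complexes, 1 of 6 measured rose and 1 fell. Napb, the neuronal beta-SNAP, was at 8.19 to 8.68 in shTardbp and 7.43 to 7.96 in controls, 1.76-fold higher (log2 0.81, SE 0.0973, limma adjusted p = 2.5e-05). Napa, the widely expressed alpha-SNAP, was 1.24-fold lower (-0.30, SE 0.0926, limma adjusted p = 0.0219) with overlapping arrays. The Napa call was lost without shTardbp 1, 3 or 4 or shLuciferase 2 (0.0521 to 0.0771), and after subtraction of the neighbours' median (0.0852), and was 0.668 with the code letter of the arrays as a block. The core SNARE genes Stx1a, Snap25 and Vamp2 had differences of 0.13, 0.12 and 0.01 and did not pass.

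Of 4 measured syntaxin-binding and tomosyn-related genes, 1 rose and 2 fell. Stxbp2 (Munc18-2), the Munc18 known from secretion outside neurons, averaged 6.58 ± 0.104 (SD, n = 4) in the Tardbp-hairpin lines against 5.82 ± 0.147 (n = 4) for shGFP and 5.51 ± 0.162 (n = 3) for shLuciferase, 1.88-fold higher (0.91, SE 0.0813, limma adjusted p = 2e-06). Stxbp5l, the tomosyn relative of the unmeasured member Stxbp5, was at 5.49 to 5.64 in shTardbp, 6.06 to 6.33 in shGFP and 5.76 to 5.87 in shLuciferase. It was 1.33-fold lower (-0.41, SE 0.0640, limma adjusted p = 0.000245), and this call was lost (adjusted p = 0.0832) with the code letter of the arrays as a block. The controls of Stxbp5l differed by 0.34 (limma adjusted p = 0.0118). Unc13d, the Munc13 of haematopoietic granule release and the only Unc13 relative outside the member list that was measured, was at a mean of 4.43 in shTardbp and 4.43 and 4.39 in the controls, above the 25th percentile on no array.

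Of 16 measured active zone scaffold genes and Rab3 partners, 6 rose against the control average and the other 10 did not pass. The 6 include Rab3c, whose difference was 0.03 (SE 0.0932) against shGFP and 0.71 (SE 0.101) against shLuciferase, with controls that differed by 0.69 (limma adjusted p = 0.000541). Rab27a, a GTPase of secretory granules, was at 8.39 to 8.59 in shTardbp and 7.28 to 7.94 in controls, 1.81-fold higher (0.85, SE 0.0932, limma adjusted p = 1.15e-05). Pclo, which encodes the active zone scaffold piccolo, was at 6.01 to 6.14 and 5.60 to 5.76, 1.28-fold higher (0.36, SE 0.0540, limma adjusted p = 0.000165). The RIM relatives Rims3 and Rims4, which lack most of the RIM domains, differed by -0.02 and 0.11 and did not pass.

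Calcium sensors and complexins, 15 measured, divided into 2 higher and 2 lower against the control average. One of the lower genes, Syt6, differed by -0.81 from shGFP and by 0.12 from shLuciferase, with controls that differed by 0.93 (limma adjusted p = 1.3e-05). Syt3, a synaptotagmin of high calcium affinity, rose 1.33-fold (0.41, SE 0.0685, limma adjusted p = 0.000358), with controls that differed by 0.30 (limma adjusted p = 0.0311). Doc2a, a calcium sensor that binds Munc13, fell 1.34-fold, from 5.39 to 5.75 in controls to 5.12 to 5.24 in shTardbp (-0.43, SE 0.0714, limma adjusted p = 0.000392). The fast calcium sensor Syt1 differed by 0.13 and did not pass. Named genes of this list were chosen by their adjusted p within each role, except Unc13d, Rab3c, Syt6, Stx1a, Snap25, Vamp2, Rims3, Rims4 and Syt1, which were named after their values were seen.

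**Figure D5:**
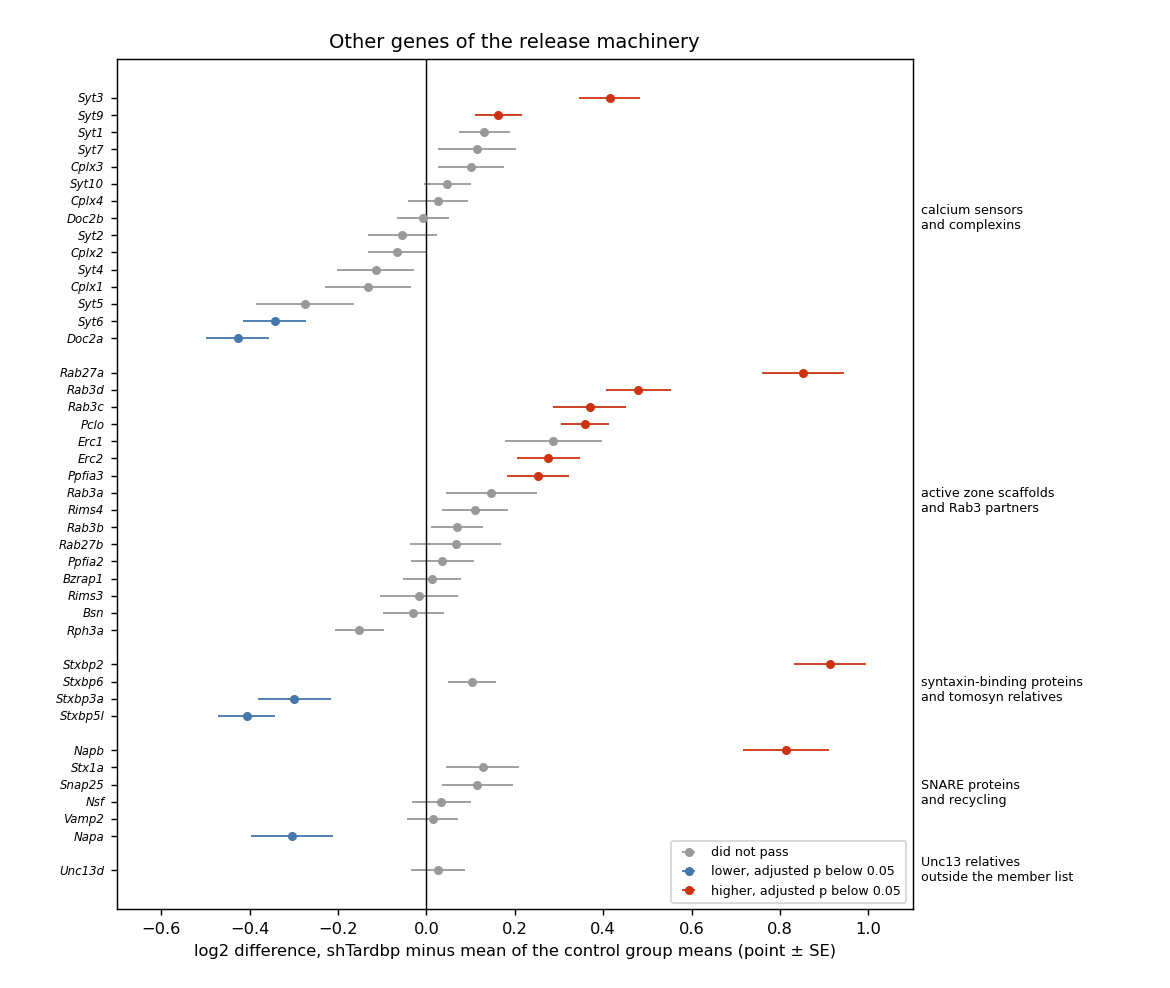
Log2 differences, shTardbp minus the average of both control means (horizontal axis, points ± SE), of the 42 measured genes of the release machinery outside the member list, grouped by role; colours mark genes that passed limma's adjusted p of 0.05. Of the 42 genes, 10 are higher, 5 are lower and 27 did not pass.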

How the data were processed

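RNA of 11 NSC34 arrays (Affymetrix whole-transcript, biotin-labelled) was described by deposited log2 probe set values; per the submitters' processing notes the authors used Partek and RMA, with no settings or versions stated. Of 194293 probe sets, 179496 carried 1 symbol, 1328 several and 13469 none in the platform annotation, and gene values and members came from those with 1 symbol; counts over probe sets used all of them. Here gene values were means over probe sets, with no filter on low values. A linear model with 3 groups was fitted with limma 3.58.1 (R 4.3.3) to 15803 genes and, separately, to all probe sets, with Benjamini-Hochberg adjustment and a threshold of 0.05. Arrays were grouped by their titles. The number of arrays limits the precision. The fit was tested on simulated data. The members and lists were chosen with earlier results of these data known. Genes named were the members, Tardbp, up to 2 passing genes per role with the smallest adjusted p, and the 3 genes most correlated with Unc13a and with Unc13b. Alternatives changed the probe set summary, filter, normalization, centring, weights, blocks and arrays. RefSeq (GRCm38.p6) gave names, gene order and upstream sequences; 7 of the 8 members had one.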

Additional observations from a re-analysis of the deposited data

How the results depend on the processing

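Over the alternatives, 520 of 589 values kept their direction and side of the threshold or moved by less than the spread between arrays. The difference of Unc13a in shTardbp was 0.58 when the code letter of the arrays was a block and 0.68 to 0.79 with 1 array left out. That of Unc13b was -0.82 with the median of the probe sets, -0.98 over probe sets above the 25th percentile only, -0.83 with the letter as a block, -0.63 after the neighbours' median was subtracted, -0.81 against shLuciferase 4 alone and -0.76 to -0.71 with 1 array left out. The filter behind -0.98 used a mean level that includes the control arrays, which favours larger falls. Between the controls, 0 members were lower with the median, with probe sets above the 25th percentile, with centred arrays or with the letter as a block, and 0 to 1 with 1 array left out. Rims1 was not among the genes above the median level, so its call could be neither kept nor lost under that filter. Replicate numbers were not taken as pairs, because not every same-numbered pair correlated above 0.1: 5 of 8 did (-0.06 to 0.26), against 8 of 32 differently numbered pairs. Whether arrays of the same number shared a batch was not tested. With replicate numbers as a block, 0 members were lower between controls (Rims1 limma adjusted p = 0.194, Unc13b -0.0047), and 2 release genes were higher, not 5. Differences near 0 between controls turned sign: Cadps2 0.0126 and Rims2 -0.0568 with the letter as a block, Rims2 -0.0232 with array weights, and, with 1 array left out, Unc13b -0.0347 to 0.0446, Unc13c -0.00303 to 0.10, Cadps2 -0.0741 to 0.0126 and Rims2 -0.0568 to 0.138. Release genes lower in shTardbp numbered 3 over genes above the median level, a filter that left out Stxbp5l and Doc2a, and 3 with the letter as a block. Between controls, higher release genes numbered 3 with the median, 10 with array weights and 3 to 6 with 1 array left out, and lower ones 4 with weights. Member probe sets called between controls numbered 0 to 2 with 1 array left out. Tardbp lost its call with the letter as a block (-0.29, limma adjusted p = 0.173). The cause of these changes was not tested. Signal near background limits Unc13c, most Cadps2 probe sets and the shTardbp values of Unc13b.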
